A study of Mus musculus with 20 samples.

Results

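The genes described are those of the cytosolic ribosomal proteins, the proteins that together with the ribosomal RNAs build the small (40S) and large (60S) subunits of the ribosome outside mitochondria. They were taken by symbol: Rps or Rpl followed by a number, with or without the letter a, x or y, plus the stalk genes Rplp0, Rplp1 and Rplp2 and the gene Rpsa, without the Rps6k kinases and Rps27l. The rule found 76 genes among 13283 symbols, 30 of the 40S and 46 of the 60S subunit. Rps3a1, the mouse name of a 40S protein, falls outside this pattern and was not counted.

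Ribosomal protein genes are transcribed separately from many chromosomes, yet their products are needed in equal amounts, and an unmatched protein is usually degraded. Their mRNAs begin with a run of pyrimidines (the 5′ terminal oligopyrimidine motif), through which the growth kinase complex mTORC1 controls their translation. Assembly with rRNA takes place mainly in the nucleolus. A few members also act outside the ribosome: RPL5 and RPL11, bound to 5S rRNA, inhibit the p53 ligase MDM2 when assembly fails. Embryonic stem cells have long been noted for a high output of ribosomes at a modest rate of protein synthesis.

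Poly(A) RNA was sequenced from mouse embryonic stem cells with altered Trim71, which encodes an RNA-binding protein of pluripotent cells, to set a deletion of the gene beside its R595H change. All cells were labelled C57BL/6 and male and were cultured with FCS, LIF and 2i, a pair of kinase inhibitors that keeps such cells naive. In the conditional system, 4 libraries came from Trim71-cond cells (genotype Trimfl/fl, a floxed allele that Cre can delete) and 4 from Trim71-KO cells, the replicate codes of each set being 1A, 2B, 3A and 3B. The clonal system held 3 WT clones (C5, C7, C16), 3 R595H/+ clones (C15, C21, C23) and 3 R595H/R595H clones (C14, C20, C24), in 12 libraries. C14, C15 and C16 have a library from each of 2 title dates, 20/1 and 5/2, and the 2 libraries of a clone were averaged. The labels name no clone for the conditional libraries and do not say how the deletion or the R595H alleles were made, so the p-values measure the spread between these libraries or clones. Values are the deposited log2 levels, scaled between libraries by the authors. The depth of the libraries is unknown.

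Library medians over all symbols lay between 5.15 and 5.20. Trim71 itself ran from 8.93 to 9.01 in Trim71-cond and from 7.43 to 7.53 in Trim71-KO, with no overlap. In the clonal libraries it ran from 9.48 to 9.54 in WT, from 9.51 to 9.63 in R595H/+ and from 10.00 to 10.18 in R595H/R595H. Its mRNA was thus lower in Trim71-KO but higher in R595H/R595H, where it lay above all WT and R595H/+ libraries. Of 10 embryonic stem cell markers all were in the table and 9 reached the level needed for testing, while none did of the 9 fibroblast or feeder markers (3 in the table) or the 7 endoderm markers (5 in the table). Of 8 neural markers, 5 were in the table and 3 reached that level: Nes with a mean of 6.27, Olig2 with 5.55 and Tubb3 with 4.32. Of these 3 only Olig2 was called in Trim71-KO, higher by 0.50 ± 0.10 (SE; limma adjusted p = 0.0013), and the median of the 3 was 0.068. Of the 9 tested stem cell markers, 4 were called higher and 1 lower (55.6%, beside 18.6% of all genes). Whether a difference in cell state or cell type had a part in the results on the family was not tested. Y-linked levels differed between cells with the same label: Ddx3y lay between 7.24 and 7.88 in the conditional libraries and between 6.85 and 7.86 in the clones C5, C15 and C21, but between 4.37 and 5.30 in C7, C16, C23 and all 3 R595H/R595H clones. Within the conditional libraries it ran from 7.47 to 7.88 in Trim71-cond and from 7.24 to 7.33 in Trim71-KO. Of 3 tested Y-linked genes, limma called 2 lower in Trim71-KO, Ddx3y and Uty (66.7%, beside 9.37% of all genes called lower), with a median of -0.40. No fit of the conditional libraries held the Y-linked level. When the fit also held the Y-linked level of each clone, 0 members were called in each clonal comparison, as without it, and a count of 0 cannot show a loss. All genes called went from 328 to 134 in R595H/R595H minus WT and from 74 to 3 in R595H/R595H minus R595H/+. In the former, members with an unadjusted limma p under 0.05 went from 11 to 5. Lars2 alone held from 0.334% to 13.2% of the summed back-transformed values. The ribosomal protein mean had a Pearson r of 0.11 with it over 17 units (8 conditional libraries and 9 clones, centred within each system).

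Ribosomal protein genes were among the most abundant transcripts of these cells. Their mean level over the 20 libraries had a median of 10.05 on the log2 scale, beside 5.18 over every symbol. Without Lars2, they held 5.70% ± 0.20 (SD, n = 4) of the back-transformed sum in Trim71-cond and 5.75% ± 0.10 (SD, n = 4) in Trim71-KO. The share was 5.77% ± 0.35 (SD, n = 3) in WT, 5.96% ± 0.33 (SD, n = 3) in R595H/+ and 5.91% ± 0.08 (SD, n = 3) in R595H/R595H clones. The 5 means thus differed by less than the range of the WT clones, which went from 5.39% to 6.08%. In bulk RNA, fewer cells of a type and less RNA per cell cannot be told apart.

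Per kilobase of transcript, on the log2 scale, the 76 genes had a median level of 10.55. The highest were Rps12 at 12.01, Rpl32 at 11.78, Rpl4 at 11.78, Rpl22 at 11.78 and Rpl9 at 11.71, all structural proteins of their subunit. The 40S genes had a median of 10.89 and the 60S genes one of 10.49. Among the lowest were Rps16 at 8.65, Rpl35 at 8.30, Rpl13a at 7.03 and Rpl24 at 2.65. The per-length level of Rps20 is doubtful, since the transcript used for it is 3706 bases long, against a median of 705 for the family.

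**Figure D1:**
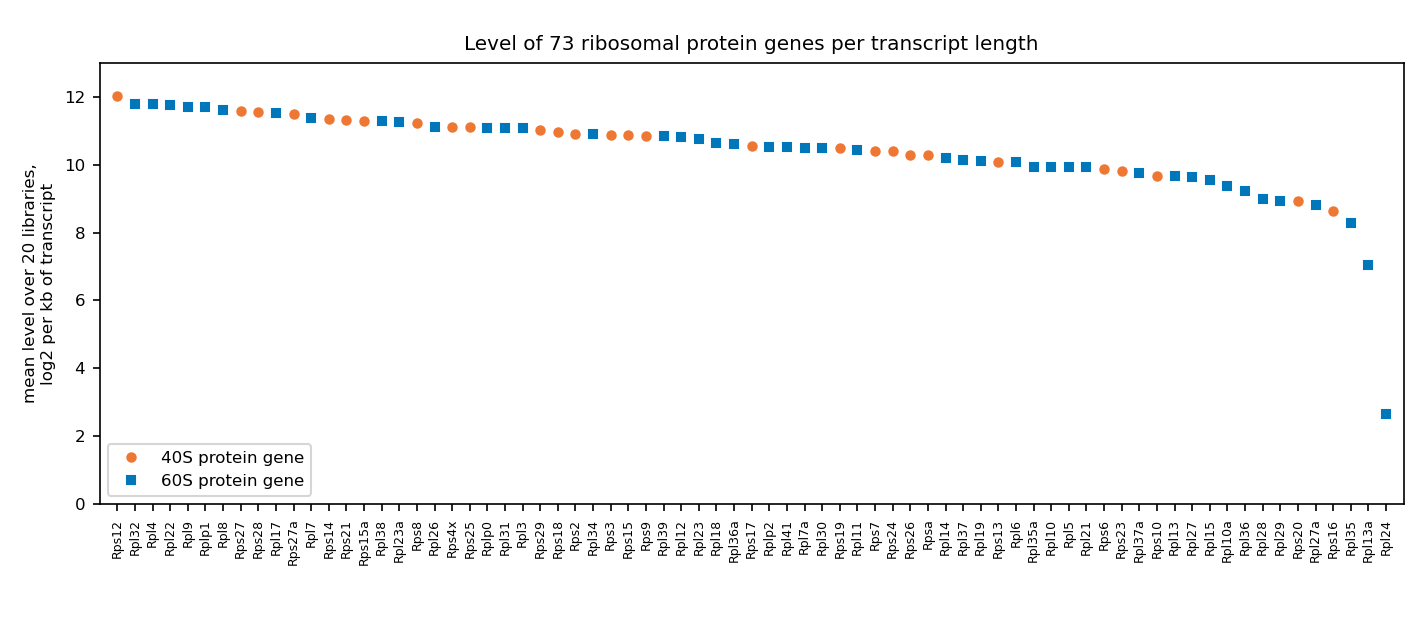
Mean log2 level per kilobase of transcript (y axis) of 73 of the 76 ribosomal protein genes in descending order (x axis), with 40S genes as circles and 60S genes as squares. Rpl13a, at 7.03, and Rpl24, at 2.65, lie below the other members.

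Rpl24, which encodes a 60S protein that bridges to the 40S subunit, was the only member under the level needed for testing (a mean of 3.32, the log2 of 10). It lay between 1.94 and 2.32 in the 20 libraries. In GENCODE vM21 (GRCm38), 71.5% of the bases of its transcript also belong to exons of another gene entry, Gm28037. Rpl13a, a 60S protein also known for a role in translational silencing, shares 59.3% of its bases with the exons of 2 other entries, Gm45713 and the microRNA gene Mir5121. Rps10, a protein of the 40S head, shares 91.6% with RPS10-NUDT3. These entries were not analysed here, and the authors' rule for reads on overlapping genes is not given in the sources used here, so the levels of these 3 members are uncertain. Rpl19 shares a smaller part, 10.7%, with Gm27597. Near copies add to this: a median of 40.3% of the 100-base windows of a member also occur in the transcripts of other genes, and for 31 members more than 50% do.

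In mouse RefSeq (GRCm38.p6), 56 of the 76 members had an annotated start with its flanking sequence. The following 7 windows, from 10 bases before the start to 20 bases from it on, are shown because they belong to members that carry the comparisons: Rps6, Rps2 and Rpl5 were called after deletion of Trim71, Rpsa and Rplp2 were among the highest in R595H/R595H clones, and Rpl19 and Rpl26 are on chromosome 11. Capitals mark a run of at least 5 C or T that begins with C within 10 bases of the start.
Rps6, chr4:86857348-86857377, minus strand: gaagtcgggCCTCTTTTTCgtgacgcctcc
Rps2, chr17:24720053-24720082, plus strand: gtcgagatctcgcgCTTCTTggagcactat
Rpl5, chr5:107900518-107900547, plus strand: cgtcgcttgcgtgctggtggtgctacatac
Rpsa, chr9:120127756-120127785, plus strand: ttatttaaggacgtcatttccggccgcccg
Rplp2, chr7:141447641-141447670, plus strand: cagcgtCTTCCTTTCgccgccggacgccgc
Rpl19, chr11:98026700-98026729, plus strand: aaacgCCCTCactgcgcatgtgcgccgcgg
Rpl26, chr11:68901556-68901585, plus strand: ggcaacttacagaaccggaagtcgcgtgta

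Such a run was present in 31 of the 56 members (55.4%) and in 30.8% of all 27025 starts of the table. Annotated starts can lie some bases from the start in use, so a window with no capitals says only that no such run stands there. Over 300 bases (250 before to 50 after the start, both strands), the letters CCGGAAG, the core bound by ETS factors such as GABPA, occurred in 22 of 56 members (39.3%) against 9.12% of all starts. AAGATGGC, the core bound by YY1, occurred in 4 (7.14% against 2.88%), TATAA in 15 (26.8% against 25.5%) and CACGTG, the E-box bound by MYC, in 5 (8.93% against 7.24%). No motif contains another, though CCGGAAG and AAGATGGC can share their AAG, and each count is a description of letters.

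Across the 20 libraries the members varied little. The SD of a tested member had a median of 0.11 on the log2 scale, from 0.07 to 0.24, where other genes of at least the lowest tested member's level had a median of 0.13 and reached 1.32. Rpl27 (0.24), Rpl19 (0.21) and Rpl35a (0.20) were among the most variable. The median of a library ran from 9.93 to 10.13.

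The 2 subunits moved together from library to library: the 40S mean and the 60S mean had an r of 0.88 over 17 units, which share the scaling of their library. A single member had a median r of 0.49 with the mean of the others, and 6 of 75 were below 0, the lowest being the ubiquitin fusion gene Rps27a (-0.33). The 5 genes outside the family most like its mean were Eef1a1 (r = 0.82), which encodes the main elongation factor and carries the same 5′ motif, Tspan4 (0.82), Taok3 (0.82), the nucleolar assembly factor gene Nop53 (0.82) and Fth1 (0.80), the ferritin heavy chain. These 5 were the highest of 9510 genes scanned, so their r is a description of a selection. The r values of the family itself are descriptions among 13 relations computed.

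**Figure D2:**
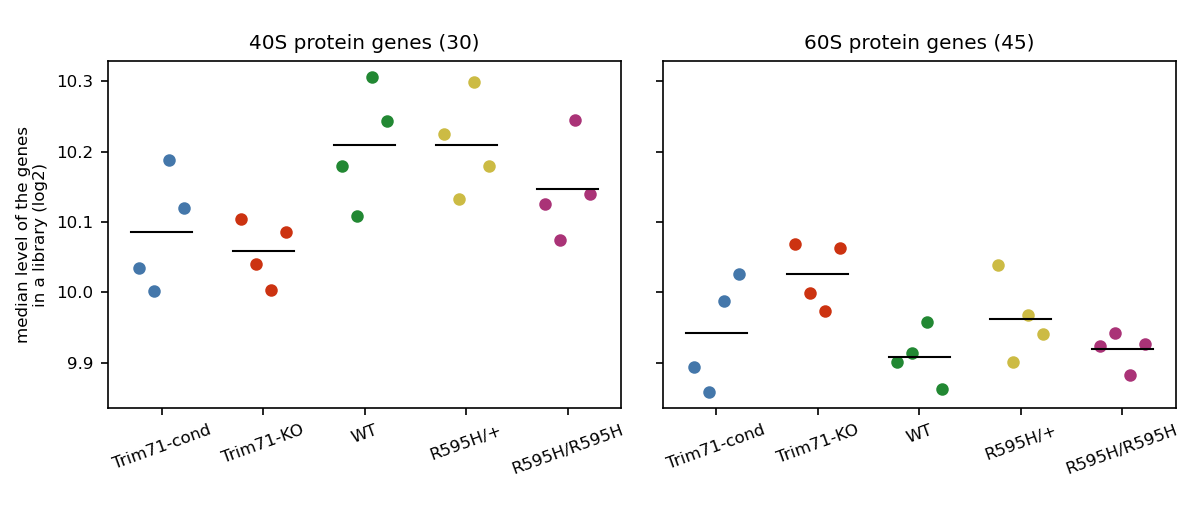
Median log2 level of the 30 40S genes (left) and of the 45 tested 60S genes (right) in each library (points), by group on the x axis, with a line at the mean of the libraries. Trim71-cond and Trim71-KO overlap in both panels, as do the WT, R595H/+ and R595H/R595H libraries. The 40S medians of Trim71-KO lie just below, and its 60S medians just above, those of WT. Trim71-KO and WT belong to different systems, with different starting cells and handling, so that gap is no measure of the deletion. The control of Trim71-KO is Trim71-cond.

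After deletion of Trim71 the median of the family hardly changed on the scaled values, and single members rose or fell by small amounts. That median balances codes of opposite direction, described below for code 2B. Since values are scaled between libraries, amounts per cell were not measured. Among 75 tested members, limma called 6 higher and 2 lower in Trim71-KO at an adjusted p under 0.05. That is 10.7% of the members, beside 18.6% of the 9580 genes tested (9.24% higher and 9.37% lower) and 25.6% of other genes of at least the lowest tested member's level. The median difference was 0.0027 over the members and -0.0028 over all genes. The 30 40S genes had a median of -0.016 and the 45 tested 60S genes one of 0.012. The largest fold was 1.18. The 95% intervals of all 75 members lay within 1.5-fold of no change, and those of 67 lay within 1.2-fold. Groups did not overlap for 12 members (16%), beside 20.8% of all genes.

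Rpl23a, a 60S protein at the exit of the nascent chain tunnel, stood at 10.46 (1A), 10.53 (2B), 10.42 (3A) and 10.55 (3B) in Trim71-cond and at 10.74, 10.79, 10.60 and 10.77 in Trim71-KO. Every Trim71-KO library was above every Trim71-cond library. The log2 difference was 0.24 ± 0.05 (SE), with a limma adjusted p of 0.0024, and it stayed under 0.05 in all 19 other settings tried, up to 0.028. Those 19 include a setting that only left out some members sharing exons with another gene. It repeats the main fit, so it counts as a pass for every called member named here and below. Rpl23a was the member with the smallest p.

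Rps6, the 40S protein phosphorylated by S6 kinases downstream of mTORC1, was at 9.60, 9.71, 9.52 and 9.59 in Trim71-cond (codes 1A, 2B, 3A, 3B) and at 9.79, 9.76, 9.76 and 9.86 in Trim71-KO. The groups did not overlap, although the highest Trim71-cond library, 2B, came within 0.05 of the lowest Trim71-KO library. The difference was 0.18 ± 0.05 (SE; limma adjusted p = 0.016) and passed in 16 of 19 other settings (adjusted p up to 0.066). Its start carries the longest run of capitals among the windows above, 10 bases. Longer runs stand at the starts of members that were not called, such as Rpl27a (20 bases) and Rpl35 (18 bases).

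Rps2, a 40S protein at the mRNA entry channel, was at 10.75, 10.92, 10.73 and 10.73 in Trim71-cond and at 10.99, 10.87, 10.92 and 10.94 in Trim71-KO, in the same order of codes. The groups overlapped through code 2B, whose Trim71-cond library was above its Trim71-KO library. The difference was 0.15 ± 0.05 (SE; limma adjusted p = 0.037), and it passed in 12 of 19 other settings (adjusted p up to 0.14).

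Rpl17, which lines the exit tunnel, and Rpl5, of the 5S particle, rose less. Rpl17 went from 11.04, 11.04, 11.01 and 11.05 to 11.13, 11.22, 11.14 and 11.18, a difference of 0.13 ± 0.04 (SE; limma adjusted p = 0.028) that passed in 13 of 19 other settings (adjusted p up to 0.14). Rpl5 went from 10.82, 10.91, 10.79 and 10.88 to 10.97, 11.00, 10.96 and 10.96, a difference of 0.12 ± 0.04 (SE; limma adjusted p = 0.044). Both groups were apart in both genes. With the code as a block Rpl5 was no longer called (adjusted p = 0.064), and it passed in 7 of 19 other settings (adjusted p from 0.010 to 0.17).

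Rpl30, a 60S protein that can bind its own transcript in yeast, fell. It stood at 9.59, 9.62, 9.70 and 9.58 in Trim71-cond and at 9.43, 9.30, 9.52 and 9.37 in Trim71-KO, with no overlap. The difference was -0.22 ± 0.05 (SE; limma adjusted p = 0.0081), past the threshold in 18 of 19 other settings. Rps14, a 40S platform protein whose human gene is lost in the 5q- syndrome, went from 10.60, 10.83, 10.63 and 10.68 to 10.55, 10.33, 10.46 and 10.54. Its groups did not overlap, yet the 1A pair differed by only 0.05 and the 2B pair by 0.50. The difference was -0.21 ± 0.06 (SE; limma adjusted p = 0.012), past the threshold in 16 of 19 other settings (adjusted p up to 0.14).

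**Figure D3:**
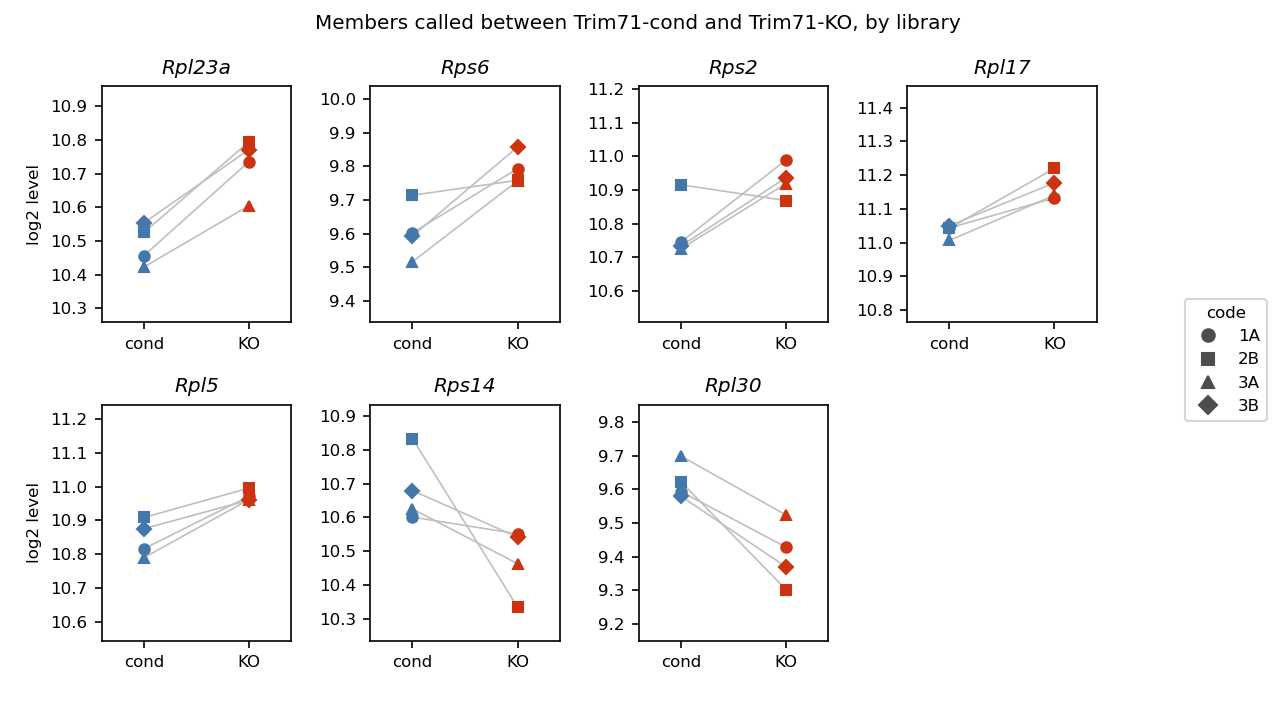
Log2 level (y axis, each panel spanning the same range of 0.7) of 7 of the 8 members called between Trim71-cond (blue) and Trim71-KO (red), by library, with lines joining libraries of the same code. The lines of code 2B (squares) run against the other 3 in Rps2.

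Code 2B stood apart over the whole family. Its Trim71-KO library minus its Trim71-cond library gave a median of -0.12 over the members, with 55 of 75 lower, whereas the medians were 0.04 (1A), 0.07 (3A) and 0.03 (3B), with 47, 52 and 44 of 75 higher. Trim71-cond 2B had the highest member median of its group, 10.11, and Trim71-KO 2B the lowest of its own, 9.99. Trim71 was at 8.94 and 7.43 in these libraries, like the other codes. Without both 2B libraries, a choice made after the values were seen, limma called 6 members, all higher, among them Rpl23a, Rpl31, Rps2, Rps6 and Rpsa, with a median of 0.07. That is 8% of the members, beside 10.3% of all genes in that setting. Rpl30 (-0.18; limma adjusted p = 0.059), Rps14 (-0.12; adjusted p = 0.14), Rpl17 (0.12; adjusted p = 0.11) and Rpl5 (0.14; adjusted p = 0.069) were then not called.

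Rplp0 (-0.13 ± 0.05, SE; limma adjusted p = 0.051) and Rpsa missed the threshold narrowly. Rpsa, the 40S protein also known as the laminin receptor, was at 10.80, 11.05, 10.76 and 10.90 in Trim71-cond and 11.10, 11.04, 10.91 and 11.10 in Trim71-KO, a difference of 0.16 ± 0.06 (SE; limma adjusted p = 0.057) with overlapping groups. It was called with the code as a block (adjusted p = 0.025, range over 19 settings 0.014 to 0.18). Rpl29 (-0.15), Rpl36 (-0.14) and Rpl41 (-0.14) were the lowest after Rpl30 and Rps14, and all 3 had overlapping groups.

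Among groups of members with a shared role, the stalk genes Rplp0, Rplp1 and Rplp2, whose products recruit elongation factors, gave -0.13, -0.032 and -0.0060. Of the 5S particle genes, Rpl5 was called and Rpl11 was at 0.023. Of 23 genes whose human counterparts are mutated in Diamond-Blackfan anaemia, 2 were called (8.70%, beside 10.7% of the family and 18.6% of all genes), both higher (Rpl5 and Rpl17), with a median of -0.0025. Of 26 hosts of intronic small nucleolar RNAs, 4 were called higher (Rpl5, Rpl17, Rpl23a and Rps2) and Rpl30 lower, with a median of 0.022. Their share of 19.2% is near that of all genes. The 4 X-linked members ranged from -0.096 (Rpl10) to 0.13 (Rpl39; limma adjusted p = 0.060).

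Between R595H/R595H and WT clones no member passed the threshold. limma called 0 of 75 members, beside 3.42% of the 9587 genes tested, and 11 members had an unadjusted p under 0.05, beside 21% of all genes. The median was 0.022 over members and -0.0023 over all genes, with 47 members higher and 28 lower. Groups did not overlap for 15 members (20%), beside 29.7% of all genes. The 95% intervals of 42 members lay within 1.2-fold and of 74 within 1.5-fold. The differences had an r of 0.39 with the GC content of the members' transcripts (75 genes), where those of the deletion had -0.12.

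Rpl36, a 60S surface protein, was at 7.82 (C16), 7.80 (C7) and 7.73 (C5) in WT and at 8.00 (C14), 8.11 (C20) and 8.03 (C24) in R595H/R595H, with groups apart. The difference was 0.26 ± 0.08 (SE; limma adjusted p = 0.094). In Trim71-KO it was -0.14, and the difference between the 2 effects was -0.40 ± 0.11 (SE), the largest in the family, with a limma adjusted p of 0.065 and a range of 0.027 to 0.14 over 28 settings. Also among the highest were Rplp2 (0.24), Rps2 (0.23) and Rpsa (0.21), of which Rplp2 had overlapping groups. Rplp2 differed by 0.43 between the 2 libraries of the WT clone C16 alone.

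At the other end Rps27a, which is made as a fusion with ubiquitin, was at 10.87 (C16), 11.03 (C7) and 10.81 (C5) in WT and at 10.75 (C14), 10.45 (C20) and 10.80 (C24) in R595H/R595H. The difference was -0.23 ± 0.09 (SE; limma adjusted p = 0.17), and the groups were apart by less than 0.01. Rpl35a, a 60S protein, was at 9.04, 9.13 and 9.17 in WT and at 8.89, 8.88 and 8.91 in R595H/R595H, tight within each group. Its difference was -0.22 ± 0.07 (SE; limma adjusted p = 0.078). Rps25 (-0.23) and Rpl30 (-0.22) had overlapping groups.

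R595H/+ clones gave no called member against WT (0 of 75 by limma, and 0 at an unadjusted p under 0.05, beside 7.66% of all genes). Of the 9587 genes 0% were called. The median over members was 0.034, and 52 of 75 were higher. Groups did not overlap for 3 members (4%), beside 12.5% of all genes. Rps2 at 0.15 was among the highest and Rps15a at -0.099 was the lowest. Between R595H/R595H and R595H/+ limma called 0 of 75 members beside 0.772% of all genes. At an unadjusted p under 0.05 there were 7, beside 18.7% of all genes, and groups did not overlap for 13 members (17.3%), beside 25.4%. Rpl36 was the highest at 0.32, and Rpl26 (-0.28), Rpl35a (-0.27), Rpl30 (-0.25) and Rpl38 (-0.24) were the lowest. Rpl35a was at 9.19, 9.17 and 9.12 in the R595H/+ clones, above all 3 R595H/R595H clones.

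Clones with a library from each of the 2 title dates show the spread that a single clone can have. The 20/1 library minus the 5/2 library gave a median over the members of 0.13 in R595H/+ C15, -0.08 in WT C16 and -0.01 in R595H/R595H C14. The size of the gap, regardless of sign, had a median of 0.15, 0.11 and 0.014 in the same order, and for Rplp2 in C16 it was 0.43, more than any genotype difference of the family. Over all genes the median size was 0.099 in C15, 0.098 in C16 and 0.022 in C14, so the 2 libraries of C14 were the closest. The dates are those of the titles. The day label of several clonal libraries differs from the title, and that of the 20/1 library of C15 is in February. With the 5/2 libraries only, limma called 0 members in each of the 3 clonal comparisons.

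The effects of the deletion and of R595H/R595H, which rest on different control cells, were set side by side. Over 75 members their log2 differences had a Pearson r of 0.41 and a Spearman rho of 0.37, beside 0.37 and 0.33 over 9531 genes tested in both systems. Genes of a library are not independent. The sign was the same for 45 members (60%), beside 61.3% of all genes. Rps2 (0.15 and 0.23), Rpsa (0.16 and 0.21) and Rpl30 (-0.22 and -0.22) had like values in both, whereas Rpl17 (0.13 and 0.0064) and Rps14 (-0.21 and -0.029) did not. In the test of the difference between the 2 effects limma called 0 of 75 members beside 1.42% of all genes, and 4 members had an unadjusted p under 0.05, beside 17.4% of all genes.

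**Figure D4:**
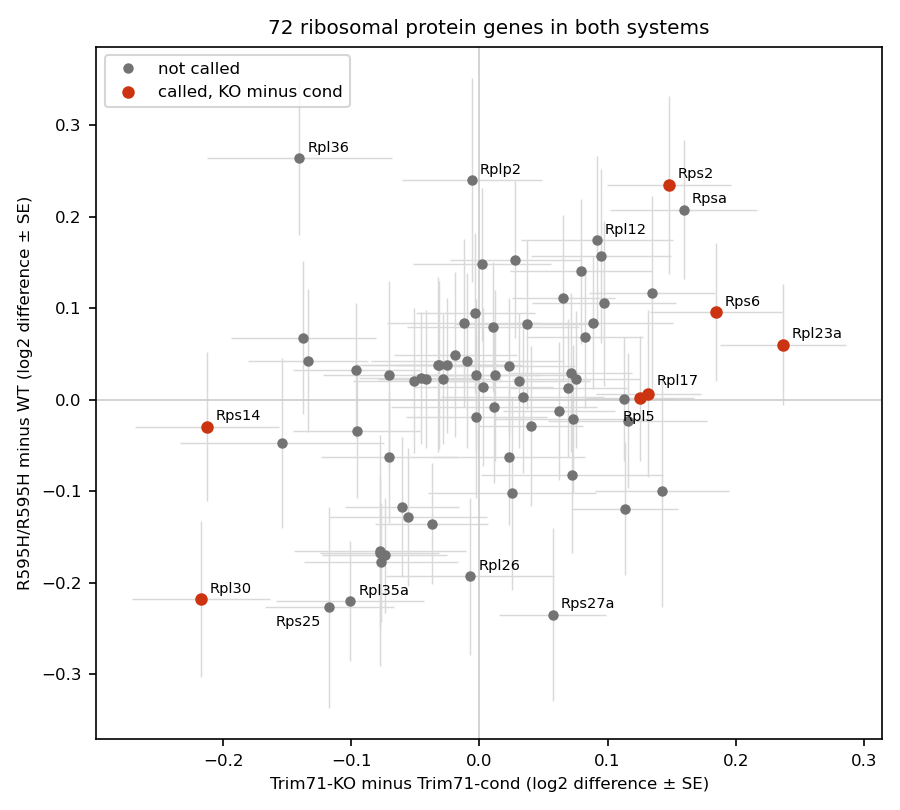
Log2 difference of 72 of the 75 tested members in Trim71-KO against Trim71-cond (x axis) and in R595H/R595H against WT (y axis), with standard errors as grey lines, and members called in the first comparison in red. Rps2 and Rpsa at the upper right and Rpl30 at the lower left lie far out on both axes, and Rpl36 is high on the y axis only.

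Levels were also compared between the 2 systems, which differ in starting cells and handling, so this is a description with no test. Among 75 members, 6 did not overlap between the 8 conditional libraries and the 9 clones (8%, beside 2.82% of all genes). Rpl35a and Rpl13a were lower in the conditional libraries, by 0.34 and 0.31. Rpl27, Rpl19, Rpl23 and Rpl23a were higher, by 0.43, 0.37, 0.31 and 0.31.

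These 4 genes all lie on chromosome 11. So do Rpl38, Rpl26 and Rps27a, which were higher by 0.29, 0.25 and 0.13. The 7 members of chromosome 11 thus had a median of 0.31 and were all higher in the conditional libraries, while the other 68 had a median of -0.07 and 13 of them were higher. The same held for the chromosome as a whole: 773 other genes of chromosome 11 had a median of 0.22, with 95.2% of them higher, and 8480 genes of other chromosomes one of -0.02, with 44% higher. In 13 consecutive stretches of 10 Mb the median of the chromosome 11 genes stayed between 0.20 and 0.28. The medians of the other chromosomes ran from -0.096 (X) to 0.0049 (chromosome 14).

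By library, the chromosome 11 median stood between 0.09 and 0.13 above the mean of all units in each conditional library. In the clones it ran from -0.15 to 0.0048, with R595H/+ C21 (0.0048) and WT C7 (-0.03) nearest to the conditional libraries. Members of the chromosome did not all follow this order. Rpl26 in R595H/+ C21 was at 10.44, above the 10.16 and 10.08 of C15 and C23, but in WT C7 it was at 10.16, below the 10.18 of C5. Rpl19 in C21 was at 9.58, the lowest of the 3 R595H/+ clones, and Rpl23a in C21, at 10.28, was below the 10.37 of C15. With each gene set against the median of its chromosome, 0 of the 7 members were apart between the systems. Of the other 68 members 4 were, where 2 had been before. Among genes outside the family, 19 of 773 on chromosome 11 and 137 of 8480 on other chromosomes were then apart.

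**Figure D5:**
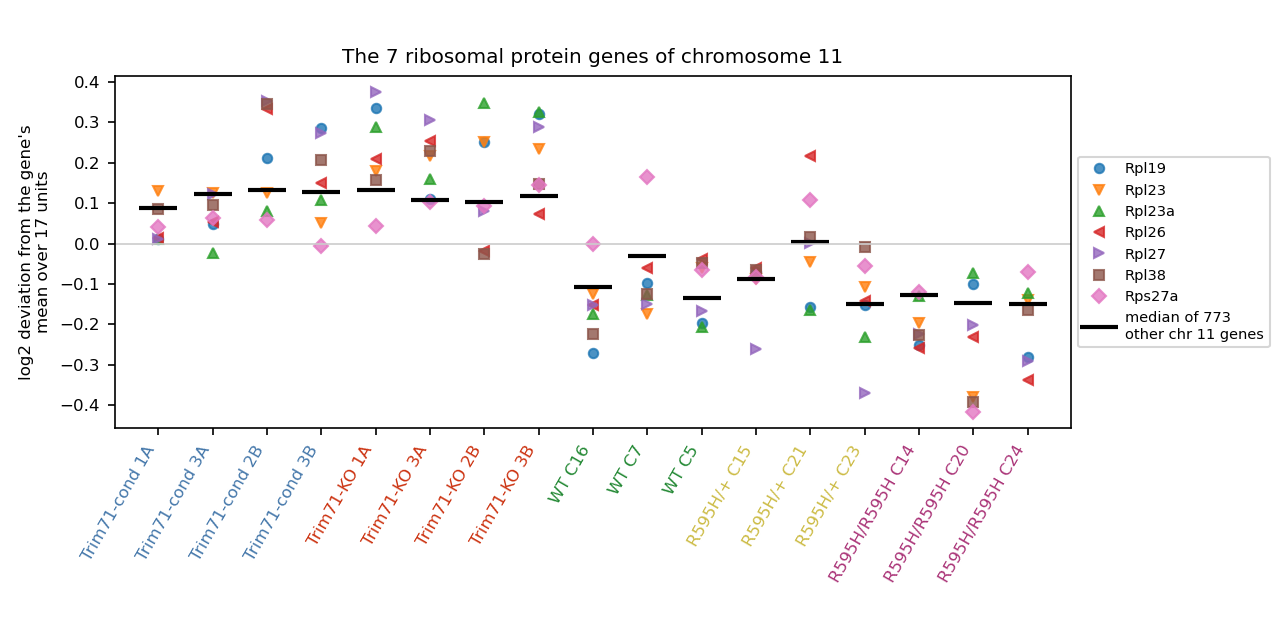
Deviation of the 7 chromosome 11 members from their own mean over 17 units (y axis, log2; coloured symbols) in each conditional library and clone (x axis), with the median of 773 other genes of the chromosome as a black bar. The bar lies between 0.09 and 0.13 in the conditional libraries and between -0.15 and 0.0048 in the clones.

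Within the conditional system chromosome 11 hardly moved, with a median of -0.0079 in Trim71-KO minus Trim71-cond. Against the medians of the chromosomes the same 8 members were called there, Rpl23a of chromosome 11 included. In R595H/R595H minus WT the chromosome medians were -0.050 for chromosome 11, 0.11 for chromosome 3, 0.070 for chromosome 8 and 0.051 for X. Against these medians Rps27a became -0.18 and the X-linked Rpl39 went from 0.12 to 0.075. The chromosome 3 members Rpl34 and Rps27 turned in direction, from 0.032 and 0.082 to -0.087 and -0.037, none of these values being called. Against R595H/+, Rpl26 and Rpl38 went from -0.28 and -0.24 to -0.21 and -0.17. What moves whole chromosomes in these cells was not tested.

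Genes that make ribosomes were looked at beside the proteins. Of 69 factors of pre-rRNA processing and the nucleolus, limma called 14 in Trim71-KO (20.3%), all lower, beside 9.37% of all genes called lower and 18.6% called either way. The list had a median of -0.072 beside -0.0028 for all genes. Emg1, a methyltransferase of 18S rRNA, gave -0.34 ± 0.08 (SE; limma adjusted p = 0.0036), Nop56, a core protein of box C/D particles, -0.32 ± 0.06 (SE; adjusted p = 0.00057), and Wdr75, of the small subunit processome, -0.19 ± 0.05 (SE; adjusted p = 0.015). In R595H/R595H clones the median was -0.068 and only Ncl (nucleolin) was called, at -0.29 ± 0.07 (SE; limma adjusted p = 0.037). Of 16 genes of RNA polymerase I and its factors, 2 were called in Trim71-KO (12.5%, below the 18.6% of all genes), both lower, Taf1c and the large subunit gene Polr1a (-0.36). Polr1a was at 0.22 in R595H/R595H, where it was not called, and the difference between the 2 effects was called.

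Of 13 tested genes of 5S particle assembly and escort of ribosomal proteins, 2 were called in Trim71-KO (15.4%, beside 18.6% of all genes). Mdm2 rose by 0.26 ± 0.07 (SE; limma adjusted p = 0.011) and the assembly factor gene Rrs1 fell by 0.24. In R595H/R595H, Mdm2 was at -0.12 and not called. Of 19 elongation factors and other mRNAs with the pyrimidine motif, Hnrnpa1 (0.21) and Eif3f (0.23) were called higher and Eif3l (-0.20) lower in Trim71-KO, 15.8% of the list. Of 31 genes of mTORC1 and of regulators of mRNAs with the pyrimidine motif, 2 were called higher and 4 lower in Trim71-KO, 19.4% of the list. Both shares are near the 18.6% of all genes. In R595H/R595H minus WT, 2 of the 31 were called higher and 1 lower (9.68%, beside 3.42% of all genes). The Rag GTPase genes Rragc (0.27 and 0.37) and Rragd (-0.27 and -0.38) were called in both systems.

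Among 10 tested relatives of ribosomal proteins outside the rule, Rpl39l, a paralog of Rpl39 known from male germ cells, was the only one called in either system. It fell in Trim71-KO by 0.63 ± 0.07 (SE; limma adjusted p = 4.7e-06) and in R595H/R595H clones by 0.36 ± 0.09 (SE; adjusted p = 0.048). Rpl39 itself, on the X chromosome, was at 0.13 and 0.12. Rps27l, a p53 target, was at 0.01 and 0.04.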

How the data were processed

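The deposited table gives 1 value per symbol and library on a log scale, taken as log2 because the submitters' processing notes name DESeq2 (with CASAVA 1.8 and STAR), whose transformations use base 2. The sources used here give no genome build, annotation, counting step or transformation, so every fold rests on that inference, low values may be drawn together, and depth and counting intervals cannot be given. The authors' values ran from -0.65 to 18.0, with 1.58% below 0. Library kits and culture are per the labels' protocols. No 2 libraries were identical (highest correlation between 2 libraries 0.99993), and 0 columns of per-sample values were left unused.

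The plan allowed for linear values. Since the values proved to be logged already, limma 3.58.1 (R 4.3.3) was run on it directly, with lmFit and eBayes (trend, robust), for genes with a mean of at least 3.32 over the fitted units. Conditional libraries were fitted alone (8 libraries), and clones as 9 clone means with 1 shared spread. Calls were made at an adjusted p under 0.05 (Benjamini-Hochberg, over all genes tested). The scripts were tested on simulated data. The members and gene lists were chosen with earlier results of these data known. Members named are those called, the 5 highest and lowest of each comparison, those under the filter, those extreme in level or SD, members of the sublists and those far from their group. Other genes are up to 4 called per list, and part of each set is named in the text. Counts and medians cover all members, and a few members' own values are not reported here.

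The labels give a day to each conditional library that equals the number in its code (1A day 1, 2B day 2, 3A and 3B day 3), so libraries of a code are taken as paired by label. Deviations from the group means had correlations of -0.89 (1A) to 0.13 (3B) within a code and of -0.15 to 0.43 between codes. Libraries of a code were thus no more alike than libraries of different codes, and the 1A libraries deviated in opposite directions. Differences within a code therefore rest on the label alone.

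Lengths and positions are from GENCODE vM21 (GRCm38), using the shortest basic transcript that codes for the principal protein. That rule was settled after other choices gave implausible lengths. Start sequences and chromosomes are from RefSeq (GRCm38.p6). The motifs, the exon overlaps, the view by chromosome and the comparison of levels between the 2 systems were chosen after the table had been seen. Alternatives tried were filters, scalings, an added constant of 8, limma without trend, the code as a block, the Y-linked mean as a covariate, all 12 clonal libraries with clone as a random block, the 5/2 libraries only, and leaving out each unit. Others were leaving out both 2B libraries, setting genes against their chromosome medians, and leaving out some members that share exons with another gene. The last repeats the main fit for the members that stay, so its outcome for them was fixed.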

Additional observations from a re-analysis of the deposited data

Results flagged for a closer look

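In groups of 4 conditional libraries, the highest or lowest library of a member was compared with the others, and its gap to the nearest was set against the range of the group. Of 144 groups (72 members, 2 groups each), 11 had a gap above Dixon's 95% critical value. Chance gives about 1 in 20 groups, and members of 1 library share its scaling.

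In Trim71-KO, library 2B was the low one for Rpl10 (9.39, next 9.49), Rpl27a (8.86, next 8.98), Rps7 (9.94, next 10.02) and Rpl35 (8.12, next 8.19). Library 3A was low for Rpl6 (10.29, next 10.53). In Trim71-cond, library 2B was high for Rps2 (10.92, next 10.75) and low for Rplp2 (9.12, next 9.24). Library 3B was low for Rps25 (10.18, next 10.26), Rpl29 (8.04, next 8.30) and Rpl23 (10.90, next 10.98), and 3A for Rpl28 (8.45, next 8.57). The 2B libraries thus hold 6 of the 11, and Rps2 is the only one of them called between the groups.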

How the results depend on the processing

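The count of 8 members called in Trim71-KO became 2 (Rpl23a and Rpl30) with limma without trend and robust settings. It ran from 3 (without Trim71-cond 3A, leaving Rpl23a, Rpl30 and Rps14) to 9 when each library was left out in turn, and was 5 without Trim71-KO 3B. With the replicate code as a block, 8 members were called, 7 of them shared (Rpl5 lost, Rpsa gained), and 1392 of all genes in place of 1783. No other call among the members changed with the block. In R595H/R595H minus WT the count ran from 0 to 1 over the clones left out (Rpl36 without R595H/+ C21, and 1 also without R595H/R595H C20). In R595H/R595H minus R595H/+ it was 1 (Rpl35a) with all 12 libraries and clone as a random block. For the difference between the effects it ran from 0 to 1 (Rpl36). Medians over the members stayed within -0.06 and 0.07 in every clonal comparison and within -0.02 and 0.04 in Trim71-KO when 1 unit was left out. Under equal library totals the R595H/R595H median was -0.013, with all genes at -0.04. The number of all genes called moved more. In R595H/R595H minus WT, 328 became 157 under equal library totals, 177 with a stricter filter, 191 with the 5/2 libraries only and 134 with the Y-linked mean as a covariate, and it ran from 67 to 541 over the clones left out. In R595H/R595H minus R595H/+, 74 became 3 with that covariate and 213 with clone as a random block. In Trim71-KO, 1783 became 988 without both 2B libraries. The cause of these shifts was not tested. The depth of the libraries is unknown, so what it limits cannot be stated.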
